A study of Homo sapiens with 6 samples.

Results

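FGF2, the 4 FGF receptor genes FGFR1 to FGFR4, and 5 genes that respond to or restrain the ERK cascade (SPRY2, SPRY4, DUSP4, DUSP6 and ETV4) were followed in H9 cells after knockdown of NPM1. These 10 genes were taken by symbol from a table of 62703 genes, and each symbol matched 1 entry. All 10 had a mean of at least 1 TPM (a transcript's share of all transcripts, corrected for length) over the 6 libraries and were among the 15768 genes tested. H9 is an established human embryonic stem cell line. Total RNA was sequenced from cells given a small interfering RNA against NPM1, labelled siNPM1 in the sample titles and siB23 in the treatment field (3 libraries), and from control cells labelled siControl and Control (3 libraries). B23 is another name of nucleophosmin, the nucleolar protein that NPM1 encodes. The series design calls the 3 samples of a group biological replicates. The culture medium, the time after transfection and the sequencing depth are not given here.

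Fibroblast growth factors are secreted ligands that bind receptor tyrosine kinases together with heparan sulfate. An activated receptor signals through the adaptor FRS2, RAS, RAF and MEK to the kinases ERK1 and ERK2. ERK activity induces its own inhibitors: Sprouty proteins act upstream in the cascade, and dual-specificity phosphatases remove phosphate from ERK itself. Human pluripotent cells are maintained with FGF2 in the medium, which RNA sequencing does not see, and they also transcribe FGF2 themselves. ERK phosphorylation was not measured here.

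NPM1 itself stood at 2969 to 3132 TPM across siControl and at 165 to 238 TPM across siNPM1. Of 10 pluripotent stem cell markers all were tested. Their summed level was 4919 to 5336 TPM across siControl and 4173 to 4968 TPM across siNPM1. Single markers split in direction. POU5F1, NANOG and TDGF1 were lower in every siNPM1 library than in every siControl library, with means at 67.1%, 76.35% and 56.7% of siControl. SOX2, ZFP42 and DNMT3B had higher means in siNPM1 (175%, 181% and 154% of siControl), but their groups overlapped. Thus 3 of the 10 had groups without overlap, where 24.8% of all tested genes did. The 4 endoderm markers were each under 1 TPM in every library. A pair of libraries stood apart. siControl replicate 2 lay at 28.1 on the first principal component, beside the siNPM1 libraries (30.4 to 32.2) and away from siControl replicates 1 and 3 (-59.9 and -61.7). Its mitochondrially encoded protein transcripts made up 22.3% of the total, against 8.86% and 8.82% in the other controls and 17.0% to 19.8% in siNPM1. On the second component siNPM1 replicate 1 lay at 48.7 and siControl replicate 2 at -32.2, where the other libraries lay between -10.8 and 2.60. In that library trophoblast and amnion markers summed to 19.2 TPM, against 6.25 and 6.71 TPM in the other siNPM1 libraries and 4.22 to 4.41 TPM in siControl. KRT7 made up 9.68 TPM of this sum and TFAP2A 9.18 TPM. KRT7 was at 3.64, 3.48 and 3.44 TPM in siControl replicates 1 to 3 and at 5.36 and 5.55 TPM in siNPM1 replicates 2 and 3, without overlap between the groups. TFAP2A was at 0.40 TPM or lower in the other libraries, and GATA3, HAND1, CDX2 and ISL1 were each under 1 TPM in every library. Neuroectoderm markers summed to 37.6 TPM in siNPM1 replicate 1, against 21.5 and 25.1 TPM in the other siNPM1 libraries and 13.3 to 18.2 TPM in siControl. ZIC1 made up 29.1 TPM of this sum and PAX6 7.87 TPM. ZIC1 was at 11.4 to 16.8 TPM across siControl and 20.1 to 29.1 TPM across siNPM1. PAX6 was at 0.85 to 1.90 TPM in the other libraries, and SOX1 and LHX2 were under 1 TPM in every library. Mesendoderm and mesoderm markers summed to 4.21 TPM in siNPM1 replicate 1, and their sum was highest in siControl replicate 2 (8.55 TPM), where MIXL1 made up 6.86 TPM. EOMES was at 0.30, 0.46 and 0.10 TPM in siControl replicates 1 to 3 and at 0.78, 1.40 and 1.82 TPM in siNPM1, without overlap. TBXT was also higher in siNPM1 without overlap, at 0.29 TPM or lower in every library. MIXL1, MESP1 and TBX6 overlapped between the groups. The 4 fibroblast markers summed to 3.77 TPM in siNPM1 replicate 1, against 1.15 and 1.78 TPM in the other siNPM1 libraries and 1.15 to 2.19 TPM in siControl. PDGFRA made up 3.61 TPM of that sum and was at 0.18 to 1.68 TPM in the other libraries, TWIST1 was at 0.16 to 1.41 TPM, and DCN and LUM were listed at 0 in every library. The part of any of these differences in the results that follow was not tested. In a bulk sample, fewer cells of a type and less RNA per cell cannot be told apart.

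None of the 10 genes passed the threshold between siNPM1 and siControl. For each of them the ratio of the highest to the lowest library exceeded the ratio of the group means in at least 1 group. For DUSP4 this held in siControl alone and for FGFR3 in siNPM1 alone. How often this holds over all tested genes was not counted. The threshold was an adjusted p under 0.05 in limma, with Benjamini-Hochberg adjustment over all tested genes. Over all tested genes, 4 passed, 0.0254% of the 15768, all of them lower. At an unadjusted p under 0.05, 1 of the 10 genes (DUSP4) was counted, where 19.7% of all tested genes were. The groups did not overlap for FGFR3, higher in siNPM1, and DUSP4, lower in siNPM1, which is 2 of 10 genes where 24.8% of all tested genes did not overlap. The log2 fold change (siNPM1 minus siControl, from log2(TPM + 1) values) was positive for 6 of the 10, with a median of 0.12 beside 0.10 over all tested genes.

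**Figure D1:**
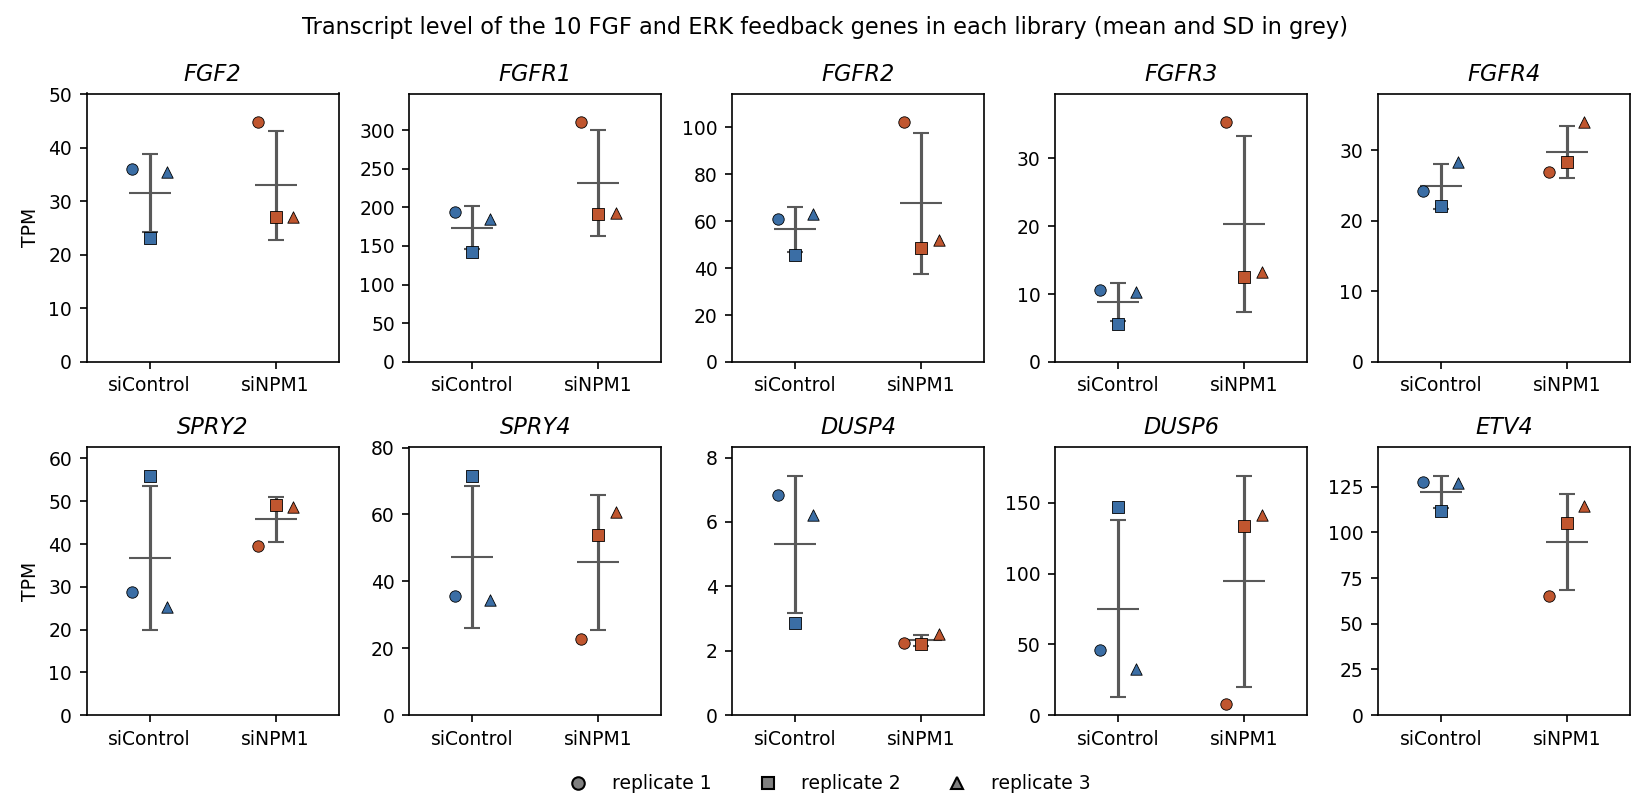
TPM of the 10 genes in each of the 3 siControl (blue) and 3 siNPM1 (orange) libraries, with a marker shape for each replicate number and the group mean and SD in grey. DUSP6 ranges from 8.18 TPM in siNPM1 replicate 1 to 147 TPM in siControl replicate 2, and only FGFR3 and DUSP4 have groups that do not overlap.

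The levels per length spanned from FGFR1 (142 to 310 TPM) down to DUSP4 (2.20 to 6.85 TPM). FGFR1 was the highest of the 10 in 5 libraries and second to DUSP6 in siControl replicate 2. ETV4 held rank 2 or 3 in every library. DUSP6 held rank 1 in siControl replicate 2, rank 2 in siNPM1 replicates 2 and 3, and rank 9 in siNPM1 replicate 1. By mean over the 6 libraries the order was FGFR1, ETV4, DUSP6, FGFR2, SPRY4, SPRY2, FGF2, FGFR4, FGFR3 and DUSP4. Among neighbours in this order, the ranges of FGFR1 and ETV4 did not overlap. All other neighbours overlapped in range, although FGFR3 was above DUSP4 in 6 of 6 libraries.

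FGF2, the ligand on which cultured human pluripotent cells depend, was the secreted FGF with the highest mean level, and its group means were close. It stood at 36.0, 23.2 and 35.5 TPM across siControl (here and below in the order of replicates 1, 2 and 3) and at 44.7, 27.0 and 27.1 TPM across siNPM1. The groups overlapped, with siNPM1 replicate 1 highest and siControl replicate 2 lowest. FGF2 had a log2 fold change of 0.05, with a 95% interval of -0.57 to 0.66 (limma, adjusted p = 0.929). It turned negative without siControl replicate 2 (-0.15, adjusted p = 0.642) and without siNPM1 replicate 1 (-0.19, adjusted p = 0.640, limma).

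Of 18 secreted FGFs, 5 reached a mean of 1 TPM, 10 were under 1 TPM in every library, and FGF3 was listed at 0 throughout. Of these 5, 2 lay above 0 and 3 below 0 in log2 fold change, with a median of -0.49, and 0 passed (limma). At an unadjusted p under 0.05 (limma) 1 of the 5 was counted, where 19.7% of all tested genes were. Without siControl replicate 2, 0 of the 5 passed as higher and 2 as lower, where 24.1% and 12.9% of all tested genes did. FGF19, a secreted FGF that acts as a hormone in the adult gut and liver, was at 20.6, 25.1 and 19.6 TPM across siControl and 15.3, 16.0 and 14.2 TPM across siNPM1. Its groups did not overlap, and its log2 fold change was -0.49 (adjusted p = 0.218; -0.38 and adjusted p = 0.0334 without siControl replicate 2, limma). FGF4, an ERK-activating ligand of the early embryo, was at 1.96, 3.33 and 2.00 TPM across siControl and 6.43, 2.49 and 1.85 TPM across siNPM1, with siNPM1 replicate 1 again highest (log2 fold change 0.31, adjusted p = 0.649; 0.49 and adjusted p = 0.402 without siControl replicate 2, limma). FGF8, a ligand of the gastrulating embryo, was at 1.81, 8.11 and 4.04 TPM against 1.35, 2.70 and 1.10 TPM, and its groups overlapped (log2 fold change -0.94, adjusted p = 0.291; -0.52 and adjusted p = 0.311 without siControl replicate 2, limma). FGF18, a ligand known for its part in skeletal growth, was at 3.03, 0.77 and 2.86 TPM across siControl and 0.57, 1.13 and 1.15 TPM across siNPM1. Only siControl replicates 1 and 3 were high for FGF18, which passed as lower without siControl replicate 2, with a log2 fold change of -1.03 (adjusted p = 0.0169, limma).

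FGF11 to FGF14 encode intracellular relatives that bind sodium channels and are not secreted. FGF12 was at 18.5, 14.2 and 15.8 TPM across siControl and 5.87, 9.41 and 8.13 TPM across siNPM1, without overlap between the groups. The log2 fold change of FGF12 was -0.97 (adjusted p = 0.179; -1.06 and adjusted p = 0.0150 without siControl replicate 2, limma). FGF13, named after its values were seen, was at 39.1 to 41.5 TPM across siControl and 22.7 to 26.6 TPM across siNPM1 (log2 fold change -0.66, adjusted p = 0.169; -0.69 and adjusted p = 0.00730 without siControl replicate 2, limma). FGF11, also tested, had a log2 fold change of 0.11, and FGF14 was under 1 TPM in every library. Of the 3 tested, 0 passed with all libraries (limma). The groups did not overlap for 2 of the 3, where 24.8% of all tested genes did not. At an unadjusted p under 0.05 (limma) 2 were counted, where 19.7% of all tested genes were. Without siControl replicate 2, 0 passed as higher and 2 as lower, where 24.1% and 12.9% of all tested genes did.

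FGFR1, FGFR2 and FGFR3, receptors of the FGF family, were each highest in siNPM1 replicate 1 and lowest in siControl replicate 2. FGFR1 stood at 194, 142 and 185 TPM across siControl and at 310, 192 and 193 TPM across siNPM1. The FGFR1 mean of siNPM1 replicates 2 and 3 was 1.01 times that of siControl replicates 1 and 3, and the groups overlapped (log2 fold change 0.39, interval -0.14 to 0.92, adjusted p = 0.349, limma). FGFR2 stood at 61.1, 45.6 and 62.9 TPM across siControl and at 102, 48.8 and 52.0 TPM across siNPM1. Its splice forms, which differ in the ligands they bind, are summed in these values. The groups of FGFR2 overlapped, with a log2 fold change of 0.19 that turned to -0.15 without siNPM1 replicate 1 (adjusted p = 0.729 and 0.629, limma).

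FGFR3 stood at 10.7, 5.65 and 10.2 TPM across siControl and at 35.3, 12.4 and 13.2 TPM across siNPM1. Every siNPM1 library was above every siControl library, and siNPM1 replicate 1 was 2.75 times the mean of the other siNPM1 libraries. Its log2 fold change was 1.00, with an interval of -0.02 to 2.02 (adjusted p = 0.258, limma). The exact two-sided permutation test gave p = 0.1, the smallest that 3 against 3 allows. Without siNPM1 replicate 1 the log2 fold change was 0.53 (adjusted p = 0.396), without siControl replicate 2 it was 0.74 (adjusted p = 0.252), and against siControl replicate 2 alone it was 1.52 (adjusted p = 0.509, limma).

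FGFR4, the receptor that with a Klotho co-receptor answers FGF19, varied least of the 10, with a highest value 1.54 times its lowest. It stood at 24.2, 22.0 and 28.4 TPM across siControl and at 26.9, 28.3 and 34.0 TPM across siNPM1. The groups overlapped, and siNPM1 replicate 1 was the lowest of its group here (log2 fold change 0.25, interval -0.11 to 0.61, adjusted p = 0.370, limma). FGFRL1, a receptor relative without a kinase domain, was at 7.22 to 7.91 TPM across siControl and 6.26 to 7.66 TPM across siNPM1. The co-receptor KLB was under 1 TPM in every library, and KL was listed at 0.

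The summed level of the 4 receptors was 290, 215 and 287 TPM across siControl and 474, 281 and 292 TPM across siNPM1, while the share of FGFR1 in it stayed between 64.6% and 68.2%. FGFR3 made up 3.68%, 2.63% and 3.57% of the sum in siControl and 7.44%, 4.42% and 4.53% in siNPM1, without overlap (3.29% ± 0.578 and 5.47% ± 1.71, SD, n = 3 each; exact two-sided permutation p = 0.1). FGFR2 made up 21.1% to 21.9% in siControl and 21.5%, 17.3% and 17.8% in siNPM1, which overlapped through siNPM1 replicate 1. FGFR4 made up 8.36% to 10.2% in siControl and 5.68%, 10.1% and 11.6% in siNPM1. Over the 4 receptors, 4 shares were compared, and no adjusted value can fall below the smallest p of the design.

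**Figure D2:**
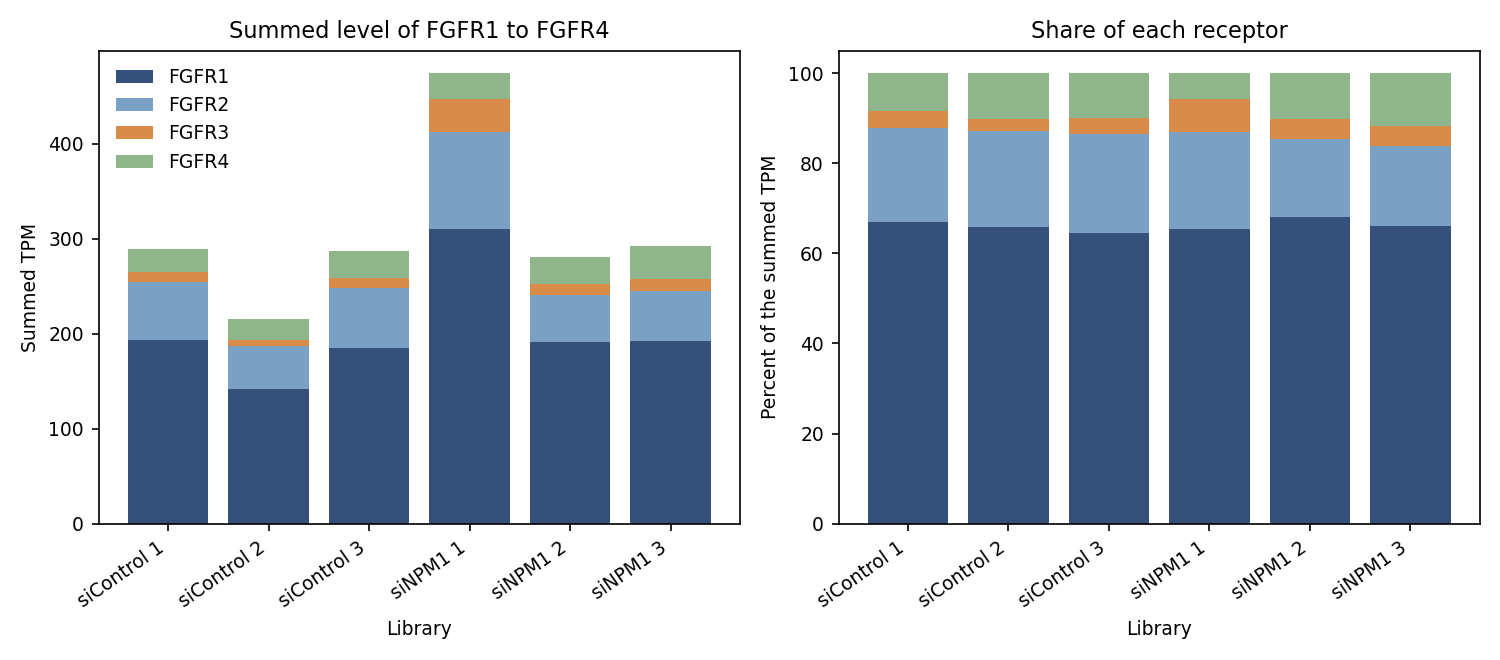
Stacked bars of FGFR1 to FGFR4 in each library, as TPM (left) and as percent of their summed TPM (right). The sum reaches 474 TPM in siNPM1 replicate 1, while FGFR1 holds 64.6% to 68.2% of it in every library and FGFR3 is above 4% in the siNPM1 libraries alone.

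SPRY2 and SPRY4 encode Sprouty proteins, inhibitors of receptor tyrosine kinase signalling upstream of ERK that ERK activity induces. SPRY2 stood at 28.7, 56.0 and 25.3 TPM across siControl and at 39.6, 49.0 and 48.6 TPM across siNPM1. siControl replicates 1 and 3 were the lowest libraries and siControl replicate 2 the highest, so the groups overlapped. SPRY2 had a log2 fold change of 0.39, with an interval of -0.31 to 1.09 (adjusted p = 0.451, limma). Without siControl replicate 2, SPRY2 passed as higher, with a log2 fold change of 0.73 (adjusted p = 0.0117, limma), as did 24.1% of all tested genes. Against siControl replicate 2 alone the log2 fold change was -0.29 (adjusted p = 0.574, limma).

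SPRY4 stood at 35.7, 71.6 and 34.4 TPM across siControl and at 22.7, 53.8 and 60.7 TPM across siNPM1. Its highest library was siControl replicate 2 and its lowest siNPM1 replicate 1, and the group means were nearly equal (47.2 ± 21.2 and 45.7 ± 20.2 TPM, SD, n = 3 each). On the log2 scale SPRY4 differed by -0.08, with an interval of -1.11 to 0.95 (adjusted p = 0.928, limma). It turned positive without siControl replicate 2 (0.26, adjusted p = 0.662) and without siNPM1 replicate 1 (0.35, adjusted p = 0.580, limma). SPRY4 was 1.10 to 1.36 times SPRY2 in 5 libraries and 0.574 times SPRY2 in siNPM1 replicate 1. The other Sprouty genes were SPRY1, at 39.2 to 65.4 TPM across siControl and 38.4 to 55.4 TPM across siNPM1, and SPRY3, at 1.90 to 2.79 TPM and 1.40 to 2.15 TPM. These values, like those of DUSP5, DUSP7, IL17RD, ERRFI1, ETV1, ETV5 and EGR1, were named after they were seen.

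The upstream sequences of SPRY2 and SPRY4 are shown because these related genes had like values in several libraries. In siControl replicate 2 they were 2.07 and 2.05 times the mean of the other controls. They were higher in siNPM1 replicates 2 and 3 than in siControl replicates 1 and 3. In siNPM1 replicate 1 they parted, with SPRY4 at 0.574 times SPRY2. A like split is common in these data: siControl replicates 1 and 3 lay apart from the other 4 libraries for 56.5% of all tested genes. Each sequence is the 250 bases before a start of the gene (RefSeq, GRCh38.p14), 5′ to 3′ on the listed strand of the gene. Capitals mark a match to AGGAAG, a motif of ETV4 and its relatives, here on the opposite strand. The SPRY2 window shown, 1 of the windows of this gene, is chr13:80341127-80341376, minus strand, upstream of the annotated exons in GENCODE 29. Its sequence was not found in GENCODE 29 transcripts, so its orientation could not be checked there as it was for SPRY4. The SPRY4 window is chr5:142324248-142324497, minus strand, and overlaps an exon of a noncoding SPRY4 transcript.
SPRY2: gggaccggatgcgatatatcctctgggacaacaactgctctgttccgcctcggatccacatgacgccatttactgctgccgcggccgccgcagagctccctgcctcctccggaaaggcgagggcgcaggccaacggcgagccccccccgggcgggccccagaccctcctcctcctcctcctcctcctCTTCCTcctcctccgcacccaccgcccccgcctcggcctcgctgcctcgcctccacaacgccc
SPRY4: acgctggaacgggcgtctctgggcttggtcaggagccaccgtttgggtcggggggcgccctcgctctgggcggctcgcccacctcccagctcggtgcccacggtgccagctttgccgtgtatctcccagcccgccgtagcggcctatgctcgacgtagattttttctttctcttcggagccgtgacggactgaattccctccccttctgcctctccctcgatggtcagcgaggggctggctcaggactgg
The SPRY2 match lies 63 to 58 bases before the start. Searched on both strands, AGGAAG occurred in 28.7% of 35116 such windows over all genes and in 6 of the 14 windows of these genes. Genes can have several windows, and 3 of these 6 belong to SPRY2. The others belong to FGFR2, FGFR4 and DUSP6, and the windows of FGF2, FGFR3 and SPRY4 held none. FGFR1, DUSP4 and ETV4 had no entry. The longer ETS motif CCGGAAG (8.52% of all windows), the AP-1 motif TGANTCA (6.57%), the CRE TGACGTCA (1.65%) and the CArG box (1.16%) had no match in any of the 14. CCGGAAG and AGGAAG share the letters GGAAG. A match is a description of the sequence.

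DUSP6, the cytoplasmic phosphatase that is specific for ERK, spanned the widest range of the 10 genes, 18.0 times from its lowest to its highest library. It stood at 45.8, 147 and 32.7 TPM across siControl and at 8.18, 134 and 142 TPM across siNPM1. Both groups held high and low libraries: siControl replicate 2 and siNPM1 replicates 2 and 3 were high, siControl replicates 1 and 3 intermediate, and siNPM1 replicate 1 low. siControl replicate 2 was 3.75 times the mean of the other controls, and the mean of siNPM1 replicates 2 and 3 was 16.8 times siNPM1 replicate 1. The difference between groups was -0.14 in log2, with an interval of -2.81 to 2.54 (adjusted p = 0.953, limma), so no direction can be read from it. Without siNPM1 replicate 1 it was 1.17 (adjusted p = 0.396), without siControl replicate 2 it was 0.50 (adjusted p = 0.783), and against siControl replicate 2 alone it was -1.40 (adjusted p = 0.802, limma).

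DUSP4, a nuclear phosphatase of ERK and other MAP kinases, was the one of the 10 that was lower in every siNPM1 library than in every siControl library. It stood at 6.85, 2.87 and 6.20 TPM across siControl and at 2.25, 2.20 and 2.51 TPM across siNPM1. The margin to siControl replicate 2 was small, while siControl replicates 1 and 3 were more than 2 times any siNPM1 library. The mean in siNPM1 was 43.7% of that in siControl (5.31 ± 2.14 and 2.32 ± 0.166 TPM, SD, n = 3 each). DUSP4 had a log2 fold change of -0.86 (SE 0.299), with an interval of -1.57 to -0.15, but it did not pass (adjusted p = 0.233, limma; exact two-sided permutation p = 0.1). Without siControl replicate 2, DUSP4 passed as lower, with a log2 fold change of -1.18 (adjusted p = 0.00401, limma), as did 12.9% of all tested genes, and 2 of the 10 genes passed in either direction where 37.0% of all tested genes did. Against siControl replicate 2 alone its log2 fold change was -0.22 (adjusted p = 0.672, limma). DUSP6 was 51.2, 60.7 and 56.5 times DUSP4 in siControl replicate 2 and siNPM1 replicates 2 and 3, and 6.68, 5.28 and 3.64 times DUSP4 in siControl replicates 1 and 3 and siNPM1 replicate 1.

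ETV4, an ETS transcription factor of the PEA3 group that is induced downstream of FGF receptors, stood at 128, 112 and 127 TPM across siControl and at 65.0, 105 and 114 TPM across siNPM1. Only siNPM1 replicate 1 lay far from the rest, and siNPM1 replicate 3 was above siControl replicate 2. The log2 fold change was -0.40 with an interval of -0.92 to 0.12 (adjusted p = 0.327, limma), and -0.15 without siNPM1 replicate 1 (adjusted p = 0.474, limma). Its relatives split: ETV5 was at 53.0, 35.8 and 56.5 TPM across siControl and 31.2, 48.5 and 52.7 TPM across siNPM1, lowest in siNPM1 replicate 1. ETV1 was at 19.0, 36.6 and 15.2 TPM across siControl and 25.0, 27.3 and 27.9 TPM across siNPM1, highest in siControl replicate 2 as SPRY2 was.

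The libraries that stood apart held the extremes of several of the 10 genes. In siNPM1 replicate 1, FGF2, FGFR1, FGFR2 and FGFR3 were at their highest and SPRY4, DUSP6 and ETV4 at their lowest, with FGFR4, SPRY2 and DUSP4 at neither extreme. In siControl replicate 2, FGF2 and the 4 receptors were at their lowest and SPRY2, SPRY4 and DUSP6 at their highest, with DUSP4 and ETV4 at neither extreme. Of the feedback genes among the 10, SPRY4 and DUSP6 were thus at opposite extremes to FGF2, FGFR1, FGFR2 and FGFR3 in both libraries, SPRY2 in siControl replicate 2 alone and DUSP4 in neither. The secreted ligands FGF8 and FGF19 were at their highest in siControl replicate 2, where FGF2 was at its lowest. Over all tested genes, siNPM1 replicate 1 was the highest library for 25.3% and the lowest for 13.4%, and siControl replicate 2 the highest for 18.6% and the lowest for 18.2%. siControl replicates 1 and 3 lay apart from the other 4 libraries, on the same side of all of them, for 56.5% of all tested genes and for 3 of the 10 (SPRY2, DUSP4 and ETV4).

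Other inhibitors of the cascade had their extremes in several libraries. Of 13 negative feedback genes tested, 6 were lowest in siNPM1 replicate 1 and 0 highest there: SPRY1, SPRY4, SPRED2, DUSP5, DUSP6 and IL17RD. DUSP5, a nuclear ERK phosphatase, was at 20.2, 31.9 and 24.7 TPM across siControl and 13.2, 40.8 and 43.2 TPM across siNPM1. IL17RD, a membrane inhibitor of FGF signalling, was at 31.7 to 39.3 TPM across siControl and 23.4, 37.7 and 39.8 TPM across siNPM1. In siControl replicate 2, 6 of the 13 were highest: SPRY1, SPRY2, SPRY4, SPRED1, DUSP6 and DUSP7. These counts include SPRY2, SPRY4 and DUSP6, and of the 9 inhibitors outside the 10 genes 4 were lowest in siNPM1 replicate 1 and 3 highest in siControl replicate 2. In siControl replicate 3, 4 of the 13 were lowest (SPRY2, SPRED1, SPRED3 and DUSP7). The shares over all tested genes were 13.4% lowest and 25.3% highest in siNPM1 replicate 1. They were 18.6% highest in siControl replicate 2 and 26.5% lowest in siControl replicate 3. SPRY3, SPRED3, DUSP4 and ERRFI1 had both extremes outside the libraries that stood apart. Between the groups, 6 of the 13 lay above 0 and 7 below 0 in log2 fold change, with a median of -0.06, and 0 passed (limma). At an unadjusted p under 0.05 (limma) 3 of the 13 were counted, where 19.7% of all tested genes were. Without siControl replicate 2, 2 of the 13 passed as higher and 2 as lower, where 24.1% and 12.9% of all tested genes did. The most positive outside the 10 genes was SPRED3, an inhibitor of RAF activation, at 2.73, 1.93 and 0.76 TPM across siControl and 3.50, 4.47 and 3.57 TPM across siNPM1 (log2 fold change 0.85, adjusted p = 0.237; 0.91 and adjusted p = 0.0893 without siControl replicate 2, limma). The most negative was SPRED2, its relative, at 14.2 to 21.6 TPM and 12.6 to 16.9 TPM (log2 fold change -0.31, adjusted p = 0.399; -0.49 and adjusted p = 0.0441 without siControl replicate 2, limma). ERRFI1, an inhibitor of EGF receptors, was at 31.4 to 45.6 TPM across siControl and 46.7 to 53.7 TPM across siNPM1 without overlap (log2 fold change 0.47, adjusted p = 0.235; 0.63 and adjusted p = 0.00707 without siControl replicate 2, limma).

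**Figure D3:**
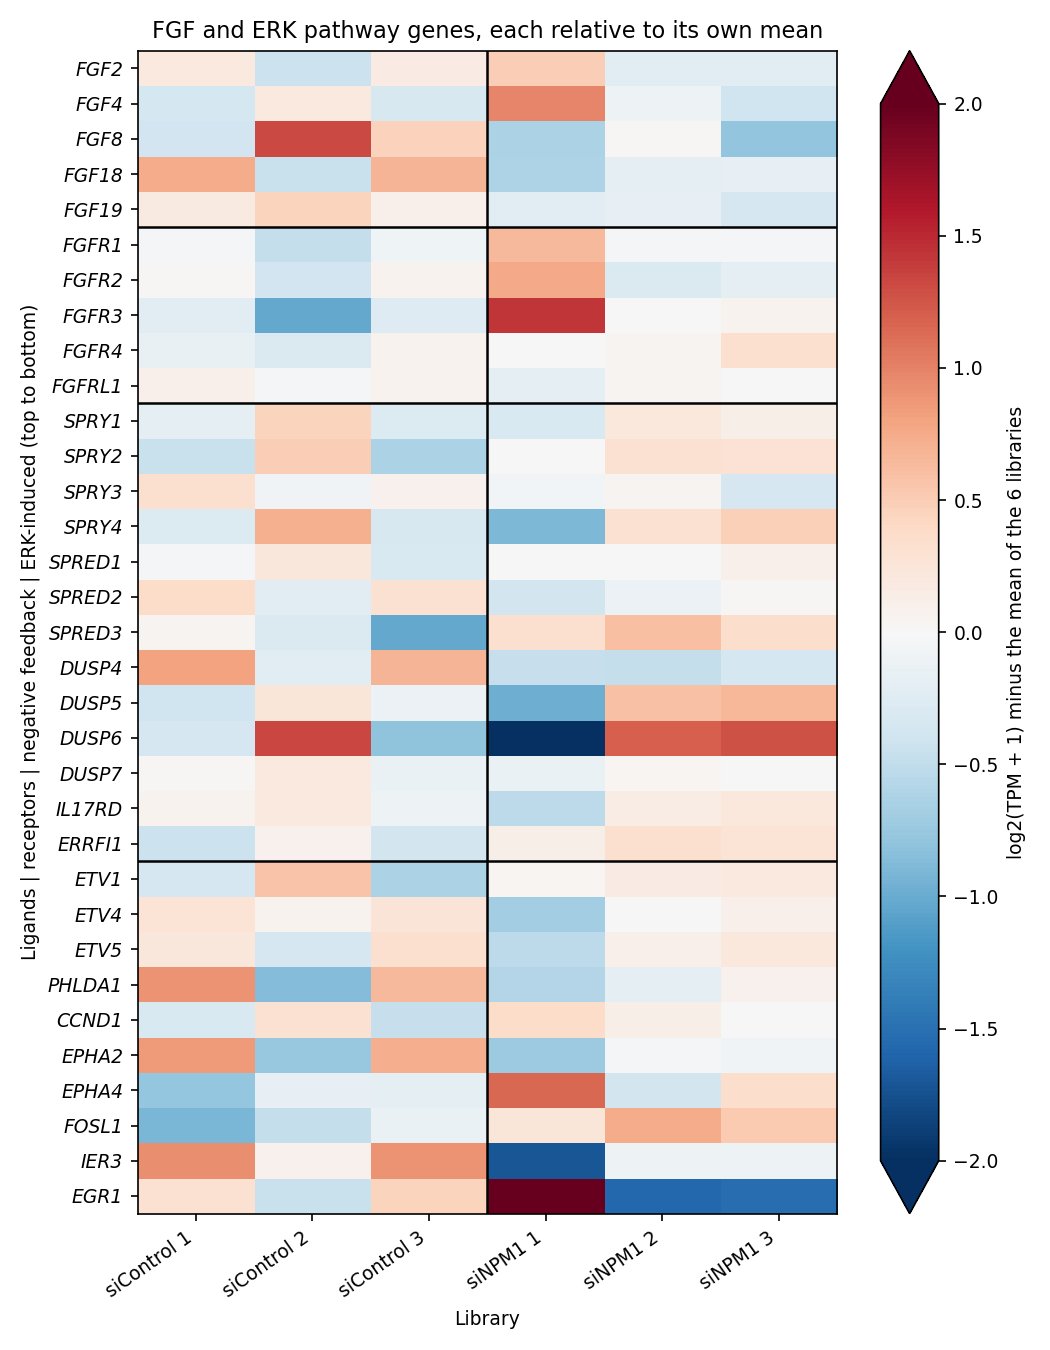
Heat map of log2(TPM + 1) minus the mean of the 6 libraries for the tested secreted FGFs, receptors, negative feedback genes and ERK-induced genes (rows, in that order from top to bottom), with siControl libraries left and siNPM1 libraries right of the line. DUSP6 is lowest in siNPM1 replicate 1 (-2.68) and highest in siControl replicate 2 (1.33), while FGFR3 is highest in siNPM1 replicate 1 (1.43) and lowest in siControl replicate 2 (-1.02).

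Genes induced by ERK lay on both sides of 0. Of 10 tested, 4 lay above 0 and 6 below 0 in log2 fold change, with a median of -0.17, and 0 passed (limma). At an unadjusted p under 0.05 (limma) 2 of the 10 were counted, where 19.7% of all tested genes were. Without siControl replicate 2, 3 of the 10 passed as higher and 2 as lower, where 24.1% and 12.9% of all tested genes did. IER3, an immediate early gene that promotes ERK activity, was at 155, 86.2 and 151 TPM across siControl and 24.1, 75.8 and 75.2 TPM across siNPM1, without overlap (log2 fold change -1.27, adjusted p = 0.238; -1.55 and adjusted p = 0.0687 without siControl replicate 2, limma). FOSL1, a subunit of the AP-1 factor, was at 0.36, 0.85 and 1.35 TPM across siControl and 2.03, 3.30 and 2.70 TPM across siNPM1, also without overlap (log2 fold change 1.01, adjusted p = 0.216; 1.03 and adjusted p = 0.0470 without siControl replicate 2, limma). EGR1, an immediate early transcription factor, was at 48.2 TPM in siNPM1 replicate 1 and between 1.41 and 8.66 TPM in the other libraries, so it was highest in the library where IER3, DUSP6 and SPRY4 were lowest.

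The 22 adaptors and kinases between receptor and ERK were all tested. Their summed level was 783 to 817 TPM across siControl and 742 to 780 TPM across siNPM1. Of the 22, 10 lay above 0 and 12 below 0 in log2 fold change, with a median of -0.01, and 0 passed (limma). At an unadjusted p under 0.05 (limma) 2 of the 22 were counted, where 19.7% of all tested genes were. Without siControl replicate 2, 2 of the 22 passed as higher and 3 as lower, where 24.1% and 12.9% of all tested genes did. FRS2, the adaptor that docks to FGF receptors, was at 6.29, 6.48 and 5.21 TPM across siControl and 11.2, 9.28 and 8.06 TPM across siNPM1, without overlap (log2 fold change 0.58, adjusted p = 0.221; 0.63 and adjusted p = 0.0377 without siControl replicate 2, limma). BRAF, a kinase that activates MEK, was at 19.5, 8.89 and 19.2 TPM across siControl and 11.2, 8.57 and 7.84 TPM across siNPM1 (log2 fold change -0.66, adjusted p = 0.284; -1.01 and adjusted p = 0.00937 without siControl replicate 2, limma). As with DUSP4, siControl replicates 1 and 3 were the high libraries of BRAF.

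With both libraries that stood apart left out, an alternative added after the values were seen, 7 of the 10 genes passed, where 49.8% of all tested genes did. SPRY2 (log2 fold change 0.83), SPRY4 (0.69) and DUSP6 (1.80) were higher, with adjusted p from 0.00366 to 0.00520 in limma. FGF2 (-0.39, adjusted p = 0.00911), FGFR2 (-0.30, adjusted p = 0.0187), DUSP4 (-1.17, adjusted p = 0.00488) and ETV4 (-0.21, adjusted p = 0.0381, limma) were lower. Higher calls made up 30.3% and lower calls 19.4% of all tested genes in that fit. FGFR1 (0.02), FGFR3 (0.27) and FGFR4 (0.23) did not pass. This fit rests on 2 libraries a group, those that remained once the libraries that stood apart had been left out, so its intervals are narrower than those of the full design. Array weights, which weigh each library by its fit, passed 5 of the 10 (FGFR4, SPRY2 and SPRY4 higher, FGF2 and DUSP4 lower), where 60.2% of all tested genes passed.

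**Figure D4:**
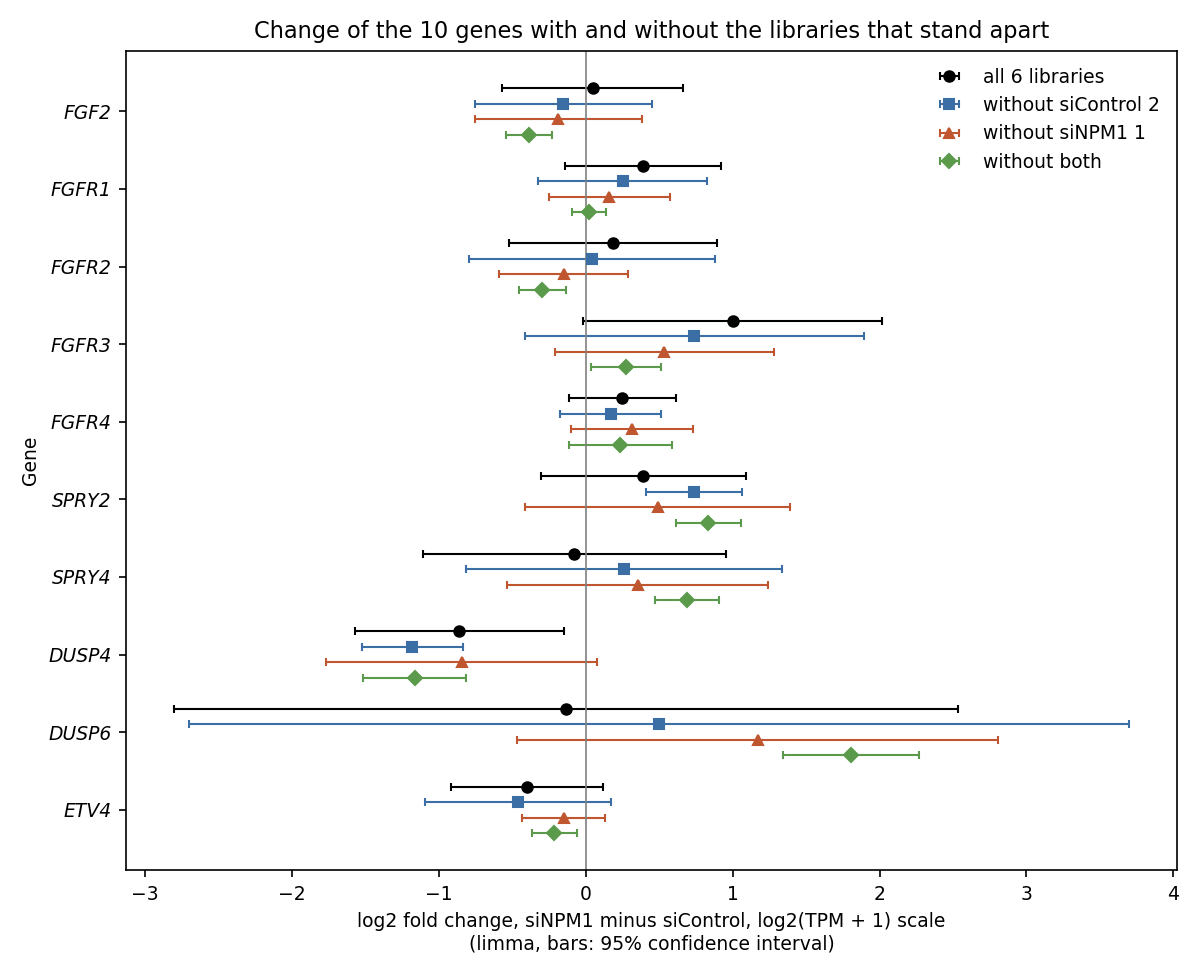
Log2 fold change of each of the 10 genes (siNPM1 minus siControl, limma, bars are 95% confidence intervals) with all 6 libraries, without siControl replicate 2, without siNPM1 replicate 1, and without both. The interval of DUSP6 runs from -2.81 to 2.54 with all libraries, and DUSP4 is negative in all 4 fits.

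Some genes followed the profiles of these genes closely. Likeness was the root-mean-square difference of log2(TPM + 1), each gene centred on its own mean, over the 6 libraries and 10335 genes with a symbol and a mean of at least 5 TPM. Nearest to FGF2 were RNASET2 (0.0429), NCOA3 (0.0563) and KMT2C (0.0593). RNASET2 was at 39.7, 27.6 and 39.3 TPM across siControl and 51.1, 31.5 and 32.3 TPM across siNPM1. Nearest to DUSP4 were SHISA9 (0.0376), SC5D (0.0441) and OIP5-AS1 (0.0561), and SC5D was at 229, 112 and 221 TPM across siControl and 99.0, 97.4 and 99.2 TPM across siNPM1. The closest to DUSP6 were NTS (0.603), MT1H (0.661) and LINC02700 (0.667). NTS was at 45.5, 142 and 35.7 TPM across siControl and 3.19, 66.4 and 54.6 TPM across siNPM1. The measure is not scaled to the range of a gene, so its values cannot be compared between these genes. DUSP6 ran from -2.68 to 1.33 around its mean, and FGF2 from -0.42 to 0.49. How near the nearest gene usually lies was not tested.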

How the data were processed

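The authors deposited 1 table of TPM values per gene for the 6 libraries, with the mean of each group, which was not used. Reads were placed on GRCh38, according to the submitters' processing notes; the aligner, counting tool, annotation and strand setting are not given in the sources used here. TPM keeps no sequencing depth, so no counting interval is given. Columns were matched to samples by treatment label and replicate number.

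All genes averaging at least 1 TPM were fitted as log2(TPM + 1) with limma 3.58.1 in R 4.3.3 (variance trend, two-sided moderated test, Benjamini-Hochberg adjustment over all tested genes, threshold 0.05); fold changes of low genes are understated. The fit was tested on simulated data with independent noise in each library, which does not model libraries that stand apart. Exact permutation tests enumerated the splits of 3 against 3. Gene positions come from GENCODE 29.

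The 10 genes and the gene lists were chosen with earlier results of these data known. Named were the 10 genes, every secreted FGF with a mean of at least 1 TPM, the most positive and most negative other gene of each list, and the 3 nearest profiles of FGF2, DUSP4 and DUSP6; others are marked as named after their values were seen. Libraries with the same replicate number did not deviate together (r over genes -0.04 to 0.08), so no pairing was assumed.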

Additional observations from a re-analysis of the deposited data

How the results depend on the processing

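The number of genes past the threshold, 4 with all libraries, was 3 with a pseudocount of 0.1. It was 1 without a filter on low values, 2 with a mean of at least 5 TPM (which left DUSP4 untested), 7 with a prior without a trend and 1 with the replicate number as a block. Array weights gave 9486, siControl replicate 2 as the only control 27, and leaving out siControl replicate 2 and siNPM1 replicate 1 together 7845. Leaving out 1 library gave 1 to 5833, the highest without siControl replicate 2. Of the 10 FGF and ERK genes, 0 passed with all libraries, 0 with the replicate block, 5 with array weights, 0 to 2 without 1 library and 7 without both libraries.

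These log2 fold changes changed sign. FGF2 was -0.080 after centring on library medians, -0.34 with array weights, -0.15 without siControl replicate 2, -0.19 without siNPM1 replicate 1 and -0.39 without both. FGFR2 was -0.20 with array weights, -0.15 without siNPM1 replicate 1 and -0.30 without both. SPRY2 was -0.29 against siControl replicate 2 alone. SPRY4 was 0.00421 rescaled without mitochondrial and ribosomal protein genes, 0.58 with array weights, 0.26 without siControl replicate 2, 0.35 without siNPM1 replicate 1 and 0.69 without both. DUSP6 was 1.38 with array weights, 0.50 without siControl replicate 2, 1.17 without siNPM1 replicate 1 and 1.80 without both. Over the fits that leave out 1 library, the values ran from -0.19 to 0.16 for FGF2, -0.15 to 0.38 for FGFR2, -0.34 to 0.35 for SPRY4 and -0.81 to 1.17 for DUSP6. The cause was not tested. FGFR1, FGFR3 and FGFR4 stayed positive and DUSP4 and ETV4 negative under every alternative run that gave them a value. Centring moved the median of all tested genes from 0.10 to -0.02, so values of that size carry no direction. The depth behind the TPM values is unknown, which leaves the precision of low genes such as DUSP4 to the spread between libraries.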
